A study of Mus musculus with 78 samples.

Results

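Mitochondrial protein import and cristae genes were followed across ageing in mouse soleus muscle, the slow postural muscle of the calf. The set holds 36 genes, listed by mouse symbol, that encode the TOM, TIM and SAM import machines, the enzymes that process or oxidise imported proteins, and the MICOS complex of the cristae. All 36 were found among the 36904 gene IDs of the count table, and all 36 passed the low-count filter that left 18218 genes to test, so none dropped out through a low value. The list is by gene name, with no threshold on a measured value, and was drawn up with earlier results of these data known.

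Nearly all mitochondrial proteins are made in the cytosol and must cross the outer membrane through the TOM complex. From there, small TIM chaperones and the Chchd4-Gfer disulfide relay handle proteins of the intermembrane space, TIM22 inserts carrier proteins, TIM23 with its Hsp70-driven motor feeds the matrix, and SAM folds barrel proteins into the outer membrane. The processing peptidase then removes the targeting presequence, and MICOS holds the cristae junctions open and in contact with the outer membrane, which matters in a slow muscle with dense mitochondria.

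All mice were C57Bl/6 and all libraries were RNA-seq of whole soleus. Batch 1 on control feed held 6-month females (4 libraries) and males (6), 12-month females (7) and males (6), 20-month females (6) and males (9), and 28-month females (6) and males (5). Batch 2 held 28-month mice only: 7 females and 10 males on control feed, and 12 males on feed with CaAKG (calcium alpha-ketoglutarate) at 2% of the feed. The titles write the oldest age as M28, read here as 28 months. The 6- and 12-month mice came from Invivos in Singapore and the 20-month mice from the Jackson laboratory, while the supplier of the 28-month mice is not given in the sources used here. Supplier and age therefore cannot be told apart in any comparison with the 20-month mice.

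Library totals ran from 19.5 to 81.6 in units of 1000000 expected counts (median 35.2). Values below are counts per 1000000 (CPM) scaled with edgeR's TMM factors, and a call means a Benjamini-Hochberg adjusted p under 0.05 over all genes tested with edgeR's quasi-likelihood test. F and M stand for the labelled sex, and 28-month values without a batch are from batch 1. The labels do not tie each library to a separate mouse, and 2 libraries of 12-month females carry the same animal tag and were summed, so p-values measure the spread between these libraries. Myh7, the slow myosin heavy chain, was present in every library (544 to 20441 CPM). Myh4, a fast myosin heavy chain, ran from 7.53 to 13345 CPM (median 117), highest in 28-month F replicate 9. That library also had the highest sum of 9 fast fibre markers, 70855 CPM against a median of 28607 in its group, and was not among those set apart by the limits used here. Without it 28 members again fell at 28 months in F, with Gfer, Tomm40 and Tomm6 in place of Chchd4, Mtx1 and Timm9. The share of all genes that passed is not given here or below for fits that leave out a single library. In whole muscle, fewer cells of a type and less RNA per cell cannot be told apart.

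Of the 78 libraries, 14 stood apart before any comparison of these genes. In 5, Xist or the Y-linked gene Ddx3y went against the labelled sex: 12-month F replicates 1 and 4, 12-month M replicate 3, 6-month F replicate 3 and 6-month M replicate 3. Summed keratinocyte markers exceeded 100 CPM in 5, which were 28-month F replicate 8, batch 2 M replicate 4, 12-month F replicate 5 and CaAKG replicates 8 and 10. Summed neutrophil markers exceeded that limit in 4, which were 28-month F replicates 10 and 12 and CaAKG replicates 6 and 7. All stayed in their labelled groups, and counts are also given without them.

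On a per-length scale (CPM per kb of transcript), the members spanned a wide range of levels at 6 months. Timm23, the channel subunit of TIM23, was highest in both sexes (296 in F and 324 in M), followed by Chchd3, a MICOS subunit (290.4 and 319), and Timm8b, a small TIM chaperone (153.4 and 148.03). Immt, the core MICOS subunit also called mitofilin, stood at 115.00 in F and 129.2 in M. The lowest were Tomm34, a cytosolic co-chaperone of import (6.67 and 5.85), and Chchd6, a MICOS subunit (4.1 and 3.91). Subunits of the same machine thus sat at both ends of the range.

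Promoter sequence was compared for motifs of factors known as regulators of nuclear genes for mitochondrial proteins. RefSeq promoters (250 bases before to 50 after the start, build GRCm38.p6) were matched for 33 of the 36 genes, all but Timm21, Tomm7 and Tomm40l. The letters searched on both strands were GCGCATGC for NRF1, CCGGAAGT for ETS factors and AAGATGGC for YY1. The ETS letters stood in a promoter of 7 of the 33 genes (21.2%), against 3.89% of the 32851 RefSeq promoters. NRF1 letters stood in a promoter of 2 genes (6.06% against 2.71%), and YY1 letters of 2 (6.06% against 2.75%). Any of the 3 stood in a promoter of 11 genes (33.3% against 8.83%). A member with alternative promoters, as Timm22 and Tomm34 have, counted once. The shares set against these are over single promoters, not genes. Windows of 30 bases around the matches are shown so that the motif, in capitals, can be seen in place. Each is written 5′ to 3′ on the gene's strand, no match overlapped another motif, and ACTTCCGG or GCATGCGC marks a match read on the other strand.
Grpel1, NRF1, chr5:36465138-36465167 (+): aaggggcgtccGCGCATGCtcagtgtgggc
Timm13, NRF1, chr10:80901143-80901172 (-): ttatattgtacGCATGCGCagcggggaggt
Mtx2, ETS, chr2:74825776-74825805 (+): gggcggagcagCCGGAAGTgccggcgcgcg
Mtx2, ETS, chr2:74825807-74825836 (+): tgtcagcgacgCCGGAAGTgcttggtcggc
Pmpcb, ETS, chr5:21737133-21737162 (+): ggagtcatgacCCGGAAGTacatctccact
Timm10, ETS, chr2:84827026-84827055 (+): tagacttccttCCGGAAGTgacccacgtgc
Timm10b, ETS, chr7:105640465-105640494 (+): gagtagtgagagtttACTTCCGGggcgact
Timm23, ETS, chr14:32201921-32201950 (-): tcgcgcttcccACTTCCGGgccgcacacag
Timm29, ETS, chr9:21592498-21592527 (+): gagctctgaccACTTCCGGgctccactcac
Timmdc1, ETS, chr16:38522790-38522819 (-): gccgccaactcACTTCCGGggctcgactga
Timmdc1, ETS, chr16:38522653-38522682 (-): tccgagagcttCCGGAAGTgagccggctgg
Mtx1, YY1, chr3:89213878-89213907 (-): agagagcgtacAAGATGGCggcgcccatgg
Timm50, YY1, chr7:28312017-28312046 (-): ggcgtcagcgcAAGATGGCggcctcggcgg
Mtx2 and Timmdc1 held the ETS letters at 2 places. The Grpel1 match ended 28 bases before the start, the Timm13 match 184, the first Mtx2 match 17 and the Pmpcb match 8, while both YY1 matches lay after the start. A match describes letters only.

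The genes fell together at 20 months. Against 6 months, 32 of 36 members fell and none rose in each sex, and the median member stood at -0.81 in F (all genes tested 0.00) and at -0.89 in M (all genes 0.02) on the log2 scale. Over all genes tested, 17.8% fell in F and 22% in M. The 32 were the same genes in both sexes, and the 4 that did not pass in either were Immt, Pmpca, Timm29 and Tomm34. Without the libraries that stand apart, 32 fell in F (17.3% of all genes) and 33 in M (24.9% of all genes).

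At 28 months the same set was also lower than at 6 months, by less. In F, 28 of 36 fell and none rose (median log2 fold change -0.55, all genes 0.09), where 9.04% of all genes fell. In M, 24 fell and none rose (median -0.46, all genes 0.02), where 9.38% of all genes fell. Both sexes called 21 of these genes. Chchd6, Pmpca, Timm29, Tomm34 and Tomm7 passed in neither. The F count rested on a few libraries: without 6-month F replicate 3, whose sex-linked transcripts went against its label, 11 fell, and without all 14 libraries that stand apart 8 fell (2.75% of all genes). Those 8 were Chchd3, Mtx2, Samm50, Timm10b, Timm21, Timm8b, Timmdc1 and Tomm40l. The fit without replicate 3 lost Chchd4, Dnajc19, Immt, Mtx1, Pam16, Timm10, Timm10b, Timm13, Timm17a, Timm22, Timm44, Timm50, Timm8a1, Timm9, Tomm20, Tomm22 and Tomm5. When the spread was estimated from the compared F groups alone, no member passed in edgeR (0% of all genes fell), although 29 had an unadjusted p under 0.05 and DESeq2 on all groups called 27. In M, 29 fell without those libraries (13.5% of all genes), and 15 fell without 6-month M replicate 5. That last fit lost Dnajc19, Mtx2, Pam16, Samm50, Timm17a, Timm17b, Timm21, Timm8a1 and Timm8b.

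**Figure D1:**
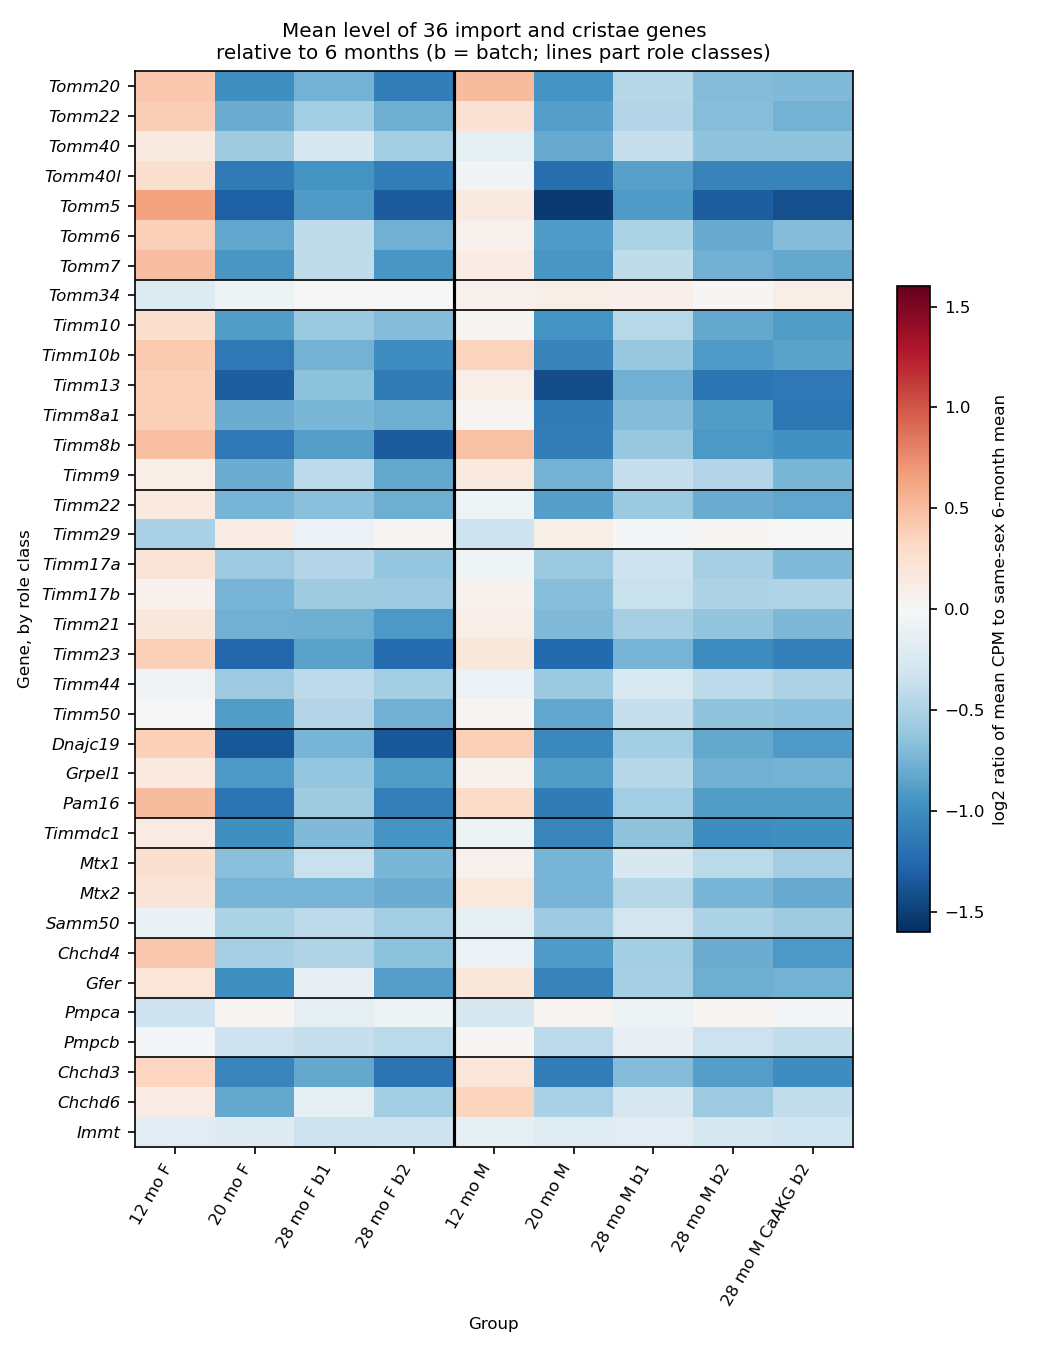
Heat map of the 36 genes (rows, by role) in 9 groups older than 6 months (columns). Colour gives the log2 ratio of the group's mean CPM to the same-sex 6-month mean. Most genes are lower in the 20- and 28-month columns of both sexes. At 20 months Tomm34, Timm29, Pmpca and Immt are closest to the 6-month level.

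The TOM complex is the entry gate: Tomm20 and Tomm22 are receptors, Tomm40 is the pore, Tomm40l is its paralogue, and Tomm5, Tomm6 and Tomm7 are small subunits. All 7 fell at 20 months in both sexes, and 4 in F and 5 in M fell at 28 months. Tomm40l (chr1:171216011-171222514, minus strand, GRCm38) was the member of this class with the smallest p. Its 6-month F libraries held 72, 96.9, 124.96 and 92.8 CPM, the 20-month F libraries 38.8 to 51.2 (median 43.8) and the 28-month F libraries 38.5 to 66 (median 46.9). In M it ran from 81.4 to 139.2 (median 104.3) at 6 months to 40.5 to 51 (median 46.6) at 20 months and to 58.5, 59.2, 54.6, 57.7 and 66.3 at 28 months. None of these 20- and 28-month libraries of either sex reached the lowest 6-month library of that sex. Its log2 fold change was -1.14 (SE 0.16, adjusted p = 6.6e-08) in F and -1.21 (SE 0.13, adjusted p = 1.3e-11) in M at 20 months. At 28 months it was -0.95 (SE 0.16, adjusted p = 1.2e-04) in F and -0.86 (SE 0.16, adjusted p = 1.6e-04) in M.

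Tomm40, the pore itself, moved less. F libraries held 52.7, 64.1, 73.5 and 60.6 CPM at 6 months, 39.2 to 47.9 (median 41.7) at 20 months and 42 to 60.3 (median 53) at 28 months. M libraries ran 62.5 to 84.4 (median 71.6) at 6 months, 38.2 to 47.8 (median 40.6) at 20 months, and 57.7, 52.8, 59.2, 54.6 and 57.9 at 28 months. In both sexes the 20-month libraries lay wholly below the 6-month ones, and at 28 months only M kept the groups apart. The fall was -0.57 (SE 0.10, adjusted p = 4.0e-06) in F and -0.81 (SE 0.08, adjusted p = 8.0e-13) in M at 20 months. At 28 months it was -0.37 (SE 0.10, adjusted p = 0.0045) in M, while F had -0.26 (SE 0.10, adjusted p = 0.056).

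Tomm20, the presequence receptor, held 163.3, 260.1, 378 and 213 CPM in 6-month F libraries, 112.98 to 139.2 (median 130.2) at 20 months and 124.03 to 197.2 (median 145.8) at 28 months. Males ran 212 to 329 (median 228) at 6 months, 110.4 to 168.8 (median 124.6) at 20 months and 182.1, 204, 171.1, 178.8 and 181.3 at 28 months. The 6-month F group was wide, and its highest value, 378, was from replicate 3. At 20 months Tomm20 fell, with log2 fold changes of -0.98 (SE 0.18, adjusted p = 5.7e-06) in F and -0.94 (SE 0.14, adjusted p = 8.7e-08) in M, and at 28 months -0.76 (SE 0.18, adjusted p = 0.0021) in F. M at 28 months gave -0.46 (SE 0.17, adjusted p = 0.052). Tomm5 had the largest fall of the class in M at 20 months, -1.53 (SE 0.17, adjusted p = 3.3e-11). Tomm22 fell, with log2 fold changes of -0.80 (SE 0.13, adjusted p = 7.2e-07) in F and -0.89 (SE 0.11, adjusted p = 1.1e-10) in M at 20 months. Tomm6 gave -0.82 and -0.90, and Tomm7 -0.94 and -0.93.

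Tomm34, the cytosolic co-chaperone that binds precursors before import, did not pass at either age. F libraries held 13.6, 15.5, 14.8 and 17.6 CPM at 6 months, 13.9 to 16.3 (median 14.4) at 20 months and 13.8 to 16.8 (median 15.5) at 28 months. M libraries ran 11 to 15 (median 13.4) at 6 months, 13.2 to 16.5 (median 14.4) at 20 months and 13.4, 14.7, 13, 15.2 and 15.4 at 28 months. The groups overlapped throughout. Its log2 fold change was -0.07 in F and 0.10 in M at 20 months, and 0.00 (95% confidence interval -0.20 to 0.20) in F and 0.09 (-0.10 to 0.28) in M at 28 months.

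**Figure D2:**
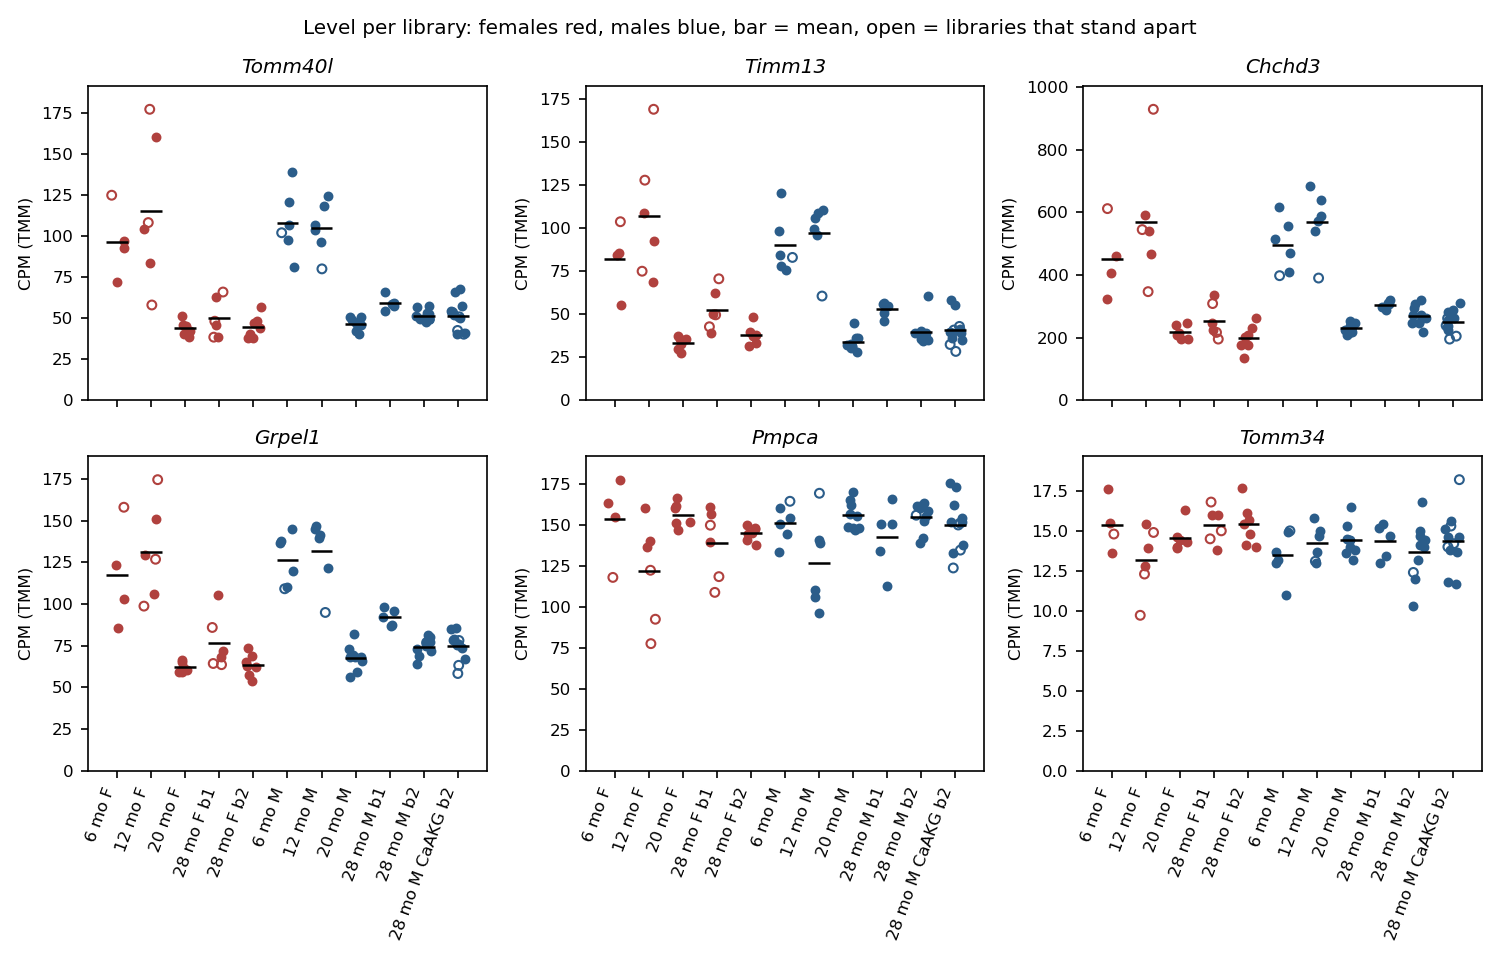
CPM of Tomm40l, Timm13, Chchd3, Grpel1, Pmpca and Tomm34 in every library (points) of the 11 groups, with the group mean as a bar. Open points are the 14 libraries that stand apart. Tomm40l, Timm13, Chchd3 and Grpel1 are lower in the 20- and 28-month groups than at 6 months, while Pmpca and Tomm34 overlap across groups.

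Small TIM chaperones escort hydrophobic precursors across the intermembrane space: Timm9 and Timm10 work as a hexamer for carrier proteins, Timm8a1 and Timm8b pair with Timm13, and Timm10b sits on TIM22. All 6 fell at 20 months in both sexes, 6 in F and 4 in M at 28 months. Timm13 (chr10:80899450-80900969, minus strand) held 55.5, 85.4, 103.6 and 84.5 CPM in the 6-month F libraries, 27.4 to 37.4 (median 34.1) at 20 months and 39.2 to 70.5 (median 49.8) at 28 months. M libraries ran 75.5 to 120.2 (median 83.6) at 6 months, 28 to 44.9 (median 32.3) at 20 months and 55.8, 56.6, 50.6, 46.3 and 54.5 at 28 months. The 20-month groups did not overlap the 6-month groups, and at 28 months F overlapped and M did not. Timm13 fell, with log2 fold changes of -1.31 (SE 0.18, adjusted p = 1.2e-08) in F and -1.42 (SE 0.14, adjusted p = 8.1e-13) in M at 20 months. The 28-month values were -0.65 (SE 0.18, adjusted p = 0.0064) in F and -0.77 (SE 0.17, adjusted p = 0.0012) in M.

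Timm8a1 and Timm8b, paralogues on the X chromosome and chromosome 9, fell in both sexes at both ages. With offsets for transcript length and GC content, described further on, Timm8a1 kept its call only at 20 months in M, and Timm8b lost its call at 28 months in M. Without 6-month F replicate 3, Timm8a1 lost its 28-month call in F (adjusted p = 0.14). Without 6-month M replicate 5, Timm8a1 and Timm8b lost theirs in M (0.058 and 0.097). Timm8b also lost it without 6-month M replicate 6 (0.052) or 28-month M replicate 14 (0.065). Timm8a1 held 14.1, 18.6, 29.7 and 23.8 CPM at 6 months in F, 10.4 to 15.2 (median 12.2) at 20 months and 9.07 to 17.1 (median 13) at 28 months. In M it ran 21.2 to 41.4 (median 25.4) at 6 months, 7.9 to 16.1 (median 13) at 20 months and 20.4, 19.8, 14.3, 17 and 15.2 at 28 months. Against 6 months, the F groups of Timm8a1 overlapped at both ages and the M groups at neither. For Timm8b the F libraries held 55.4, 83.6, 101.2 and 77.9 CPM at 6 months, 32.2 to 41 (median 35.1) at 20 months and 31.6 to 55.5 (median 44) at 28 months. Its M libraries ran 62.1 to 112.6 (median 69.3), then 27.7 to 48 (median 33.8) at 20 months and 51.5, 57.5, 51.6, 43.5 and 48.9 at 28 months. Timm8b kept the 6- and 20-month groups apart in both sexes. Timm8a1 fell, with log2 fold changes of -0.80 (SE 0.21, adjusted p = 0.0018) in F and -1.12 (SE 0.17, adjusted p = 1.0e-07) in M at 20 months, and -0.73 (SE 0.21, adjusted p = 0.012) in F and -0.70 (SE 0.20, adjusted p = 0.013) in M at 28 months. Timm8b fell, with log2 fold changes of -1.14 (SE 0.20, adjusted p = 2.9e-06) in F and -1.11 (SE 0.16, adjusted p = 3.0e-08) in M at 20 months, and -0.88 (SE 0.20, adjusted p = 0.0015) in F and -0.60 (SE 0.19, adjusted p = 0.022) in M at 28 months.

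Timm9 was expressed at a low level, with 13.5, 14.9, 19.5 and 18.6 CPM in 6-month F libraries, 8.44 to 11 (median 9.49) at 20 months and 9.4 to 17.3 (median 11.8) at 28 months. M values ran 14.4 to 23.8 (median 15.2) at 6 months, 8.49 to 14.4 (median 9.97) at 20 months and 14.4, 14.8, 12.2, 12.1 and 13.3 at 28 months. Groups at 28 months overlapped those at 6 months in both sexes. Timm9 fell, with log2 fold changes of -0.79 (SE 0.15, adjusted p = 1.5e-05) in F and -0.76 (SE 0.12, adjusted p = 3.3e-07) in M at 20 months, and -0.42 (SE 0.15, adjusted p = 0.044) in F at 28 months, with -0.37 (SE 0.14, adjusted p = 0.067) in M. Its 28-month F call was lost without any 1 of 6-month F replicates 2 to 4 or 28-month F replicates 8 to 12. The adjusted p of Timm9 was then 0.05 to 0.23. Its partner Timm10 fell, with log2 fold changes of -0.90 in F and -0.96 in M at 20 months. Timm10b fell, with log2 fold changes of -1.15 and -1.07 at 20 months and -0.76 and -0.60 at 28 months, F before M.

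The TIM22 translocase inserts carrier proteins, and 1 of its 2 members fell. Timm22, the channel (chr11:76406952-76416292, plus strand), held 35.6, 41.7, 62.5 and 41.5 CPM at 6 months in F, 25.2 to 28.5 (median 27.2) at 20 months and 23.9 to 36.3 (median 26.5) at 28 months. M libraries of Timm22 ran 41.5 to 62 (median 44.6) at 6 months, 23.1 to 32.4 (median 26) at 20 months and 30.1, 31.9, 31.4, 32.1 and 36.2 at 28 months. It fell, with log2 fold changes of -0.75 (SE 0.16, adjusted p = 6.9e-05) in F and -0.88 (SE 0.13, adjusted p = 2.1e-08) in M at 20 months, and -0.67 (SE 0.16, adjusted p = 0.002) in F and -0.60 (SE 0.15, adjusted p = 0.0038) in M at 28 months. Only the 28-month F group overlapped the 6-month libraries of its sex. Timm29, an added TIM22 subunit in animals, passed in none of the 4 comparisons, with log2 fold changes of 0.12 and 0.09 at 20 months and -0.10 and -0.02 at 28 months.

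TIM23 carries presequence proteins across the inner membrane: Timm23 and the paralogues Timm17a and Timm17b form its membrane core, Timm50 is a receptor, Timm21 links it to TOM, and Timm44 anchors the motor. All 6 fell at 20 months in both sexes, and 6 in F and 5 in M at 28 months. Timm21 held 30.7, 35.6, 36.5 and 32.6 CPM at 6 months in F, 17 to 21.9 (median 20.6) at 20 months and 12.3 to 27.9 (median 18.6) at 28 months. Across males it ran 25.3 to 45.8 (median 30.8) at 6 months, 16.4 to 25.1 (median 20) at 20 months and 24.8, 26.3, 21, 22.6 and 22.2 at 28 months. Every one of these 20- and 28-month F libraries lay below all 4 of the 6-month F libraries. Timm21 fell, with log2 fold changes of -0.77 (SE 0.16, adjusted p = 6.9e-05) in F and -0.71 (SE 0.13, adjusted p = 4.9e-06) in M at 20 months, and -0.77 (SE 0.16, adjusted p = 7.5e-04) in F and -0.52 (SE 0.15, adjusted p = 0.012) in M at 28 months. Timm23, the most abundant member per length, fell from a mean of 347 CPM at 6 months to 144.8 at 20 months in F (-1.26, SE 0.18, adjusted p = 4.2e-08). In M its mean went from 379.9 to 160.1 CPM (-1.25, SE 0.15, adjusted p = 7.1e-11). Timm50 fell, with log2 fold changes of -0.89 (SE 0.12, adjusted p = 8.1e-09) in F and -0.84 (SE 0.10, adjusted p = 3.3e-11) in M at 20 months.

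Timm17a and Timm17b differ in transcript length, 7280 and 2381 bases. Timm17a held 142.7, 169.8, 185.03 and 161.2 CPM in 6-month F libraries, 99.6 to 118.2 (median 109.1) at 20 months and 89.1 to 166.6 (median 115.6) at 28 months. Its values in M ran 152.9 to 249 (median 188.7) at 6 months, 111.2 to 151.7 (median 128.3) at 20 months and 154.6, 146.8, 164.7, 162.7 and 141.7 at 28 months. For Timm17a the 6- and 28-month groups overlapped in both sexes. Timm17b held 29.6, 34.3, 33.8 and 32.9 CPM in 6-month F libraries, 18 to 21.1 (median 19.6) at 20 months and 16.3 to 29.4 (median 21.9) at 28 months. M libraries of Timm17b ran 27.8 to 34.4 (median 29.9) at 6 months, 17.1 to 21.6 (median 18.7) at 20 months and 25.6, 23.2, 20.5, 23.8 and 26.9 at 28 months. Timm17b kept the 20- and 28-month groups apart from the 6-month group in both sexes. Timm17a fell, with log2 fold changes of -0.58 (SE 0.13, adjusted p = 1.3e-04) in F and -0.59 (SE 0.10, adjusted p = 1.8e-06) in M at 20 months, and -0.47 (SE 0.13, adjusted p = 0.0068) and -0.34 (SE 0.12, adjusted p = 0.045) at 28 months. Timm17b fell, with log2 fold changes of -0.74 (SE 0.13, adjusted p = 3.6e-06) and -0.68 (SE 0.11, adjusted p = 1.3e-07) at 20 months, and -0.56 (SE 0.13, adjusted p = 0.0018) and -0.35 (SE 0.12, adjusted p = 0.041) at 28 months. Timm17a lost its 28-month M call without 6-month replicate 5 or 6 or 28-month replicate 11, 14 or 15 (0.059 to 0.16). Timm17b lost its own without 6-month replicate 2, 5 or 6 or 28-month replicate 11, 13 or 14 (0.051 to 0.11).

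Timm44 held 70.7, 75.2, 79.3 and 73.9 CPM in the 6-month F libraries, 45.8 to 52.6 (median 49.8) at 20 months and 42.6 to 67.4 (median 56.2) at 28 months. In males its libraries ran 65.9 to 97.1 (median 87.8) at 6 months, 49.5 to 60.6 (median 56.3) at 20 months and 69.8, 76.9, 68.6, 73.5 and 69.4 at 28 months. Against 6 months, the F groups did not overlap at either age, and M overlapped at 28 months. Timm44 fell, with log2 fold changes of -0.58 (SE 0.12, adjusted p = 4.0e-05) in F and -0.60 (SE 0.10, adjusted p = 2.8e-07) in M at 20 months, and -0.42 (SE 0.12, adjusted p = 0.0093) in F at 28 months, with -0.24 (SE 0.11, adjusted p = 0.14) in M.

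The import motor pulls proteins into the matrix: Grpel1 exchanges nucleotide on mitochondrial Hsp70, Dnajc19 is its J protein and Pam16 regulates the J protein. All 3 fell in both sexes at both ages. With the length and GC offsets Grpel1 kept all 4 calls, Dnajc19 only that at 20 months in F, and Pam16 none. Without 6-month F replicate 3, Pam16 and Dnajc19 lost their 28-month call in F (adjusted p = 0.23 and 0.12). Without 6-month M replicate 5 both lost it in M (0.05 and 0.12). Dnajc19 also lost it in M without 6-month replicate 6 or 28-month replicate 13, 14 or 15 (0.062 to 0.076). Grpel1 (chr5:36464998-36474080, plus strand) held 85.4, 123.5, 157.97 and 103.2 CPM in 6-month F libraries, 59 to 66.2 (median 61.3) at 20 months and 63.6 to 105.5 (median 69.8) at 28 months. M libraries ran 109.1 to 144.7 (median 128.02) at 6 months, 56.5 to 81.7 (median 68) at 20 months and 97.9, 87.2, 86.9, 91.9 and 95.7 at 28 months. Against the 6-month group of the same sex, Grpel1 overlapped only at 28 months in F. It fell, with log2 fold changes of -0.92 (SE 0.13, adjusted p = 1.7e-08) in F and -0.90 (SE 0.10, adjusted p = 2.7e-11) in M at 20 months, and -0.62 (SE 0.13, adjusted p = 6.0e-04) and -0.46 (SE 0.12, adjusted p = 0.0053) at 28 months.

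Dnajc19 held 36.6, 50.6, 76.3 and 46.9 CPM in 6-month F libraries, 18.4 to 21.9 (median 20.8) at 20 months and 23.5 to 43.8 (median 29.2) at 28 months. Males ran 39.5 to 65.9 (median 45.7) at 6 months, 20.7 to 25.5 (median 24.3) at 20 months and 37.2, 36.3, 28.9, 31.9 and 31.1 at 28 months. Each 20-month library lay below every 6-month library of its sex. Dnajc19 fell, with log2 fold changes of -1.36 (SE 0.20, adjusted p = 6.3e-08) in F and -1.03 (SE 0.16, adjusted p = 1.4e-07) in M at 20 months, and -0.74 (SE 0.20, adjusted p = 0.0059) and -0.55 (SE 0.19, adjusted p = 0.036) at 28 months. Pam16 fell, with log2 fold changes of -1.19 (SE 0.17, adjusted p = 7.9e-08) in F and -1.12 (SE 0.14, adjusted p = 6.5e-10) in M at 20 months.

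Timmdc1, an inner membrane protein of the TIM17 family that assists complex I assembly, fell in all 4 comparisons. F libraries held 38.8, 49.5, 58.8 and 46.6 CPM at 6 months, 23 to 27.4 (median 24) at 20 months and 20 to 40.8 (median 26.5) at 28 months. M libraries ran 44.4 to 70.2 (median 51.9) at 6 months, 21.5 to 30 (median 26.5) at 20 months and 31.8, 35.7, 36.9, 36.4 and 36.4 at 28 months. Against the 6-month group of the same sex, only the 28-month F group overlapped. The fall was -0.99 (SE 0.15, adjusted p = 2.2e-07) in F and -1.06 (SE 0.12, adjusted p = 5.4e-11) in M at 20 months, and -0.71 (SE 0.15, adjusted p = 9.4e-04) and -0.64 (SE 0.15, adjusted p = 0.0016) at 28 months.

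SAM inserts barrel proteins into the outer membrane through Samm50, with the metaxins Mtx1 and Mtx2 on its cytosolic face. All 3 fell at 20 months in both sexes, and 3 in F and 2 in M at 28 months. Mtx2, whose promoter holds the ETS letters at 2 places, held 47.4, 62, 76.3 and 55.2 CPM in 6-month F libraries, 32.2 to 40.8 (median 35.8) at 20 months and 21.4 to 47.4 (median 37) at 28 months. Its M libraries ran 49.1 to 86.4 (median 61.7) at 6 months, 32.2 to 48.9 (median 38) at 20 months and 51.8, 46.1, 45.1, 46.1 and 47.4 at 28 months. Mtx1 held 19.8, 28.8, 25.4 and 26.7 CPM in 6-month F libraries, 15 to 18 (median 15.6) at 20 months and 16.9 to 25.2 (median 19.2) at 28 months. M libraries of Mtx1 ran 21.2 to 30.4 (median 25), then 12.5 to 17.7 (median 15.6) at 20 months and 23.7, 21.4, 19.3, 22.7 and 20.9 at 28 months. Both metaxins kept the 6- and 20-month groups apart in both sexes. Mtx2 fell, with log2 fold changes of -0.75 (SE 0.15, adjusted p = 3.5e-05) in F and -0.75 (SE 0.12, adjusted p = 5.0e-07) in M at 20 months, and -0.74 (SE 0.15, adjusted p = 6.1e-04) and -0.45 (SE 0.14, adjusted p = 0.022) at 28 months. Mtx1 fell, with log2 fold changes of -0.67 (SE 0.13, adjusted p = 1.4e-05) and -0.75 (SE 0.10, adjusted p = 7.2e-09) at 20 months, and -0.35 (SE 0.13, adjusted p = 0.042) in F at 28 months, with -0.26 (SE 0.12, adjusted p = 0.14) in M. Mtx1 lost that F call without any 1 of 6-month replicates 2 to 4 or 28-month replicates 8 to 11 (0.059 to 0.16). Samm50 fell, with log2 fold changes of -0.51 (SE 0.10, adjusted p = 1.5e-05) and -0.58 (SE 0.08, adjusted p = 6.9e-09) at 20 months.

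The disulfide relay of the intermembrane space consists of the oxidoreductase Chchd4 and the sulfhydryl oxidase Gfer that recharges it. Chchd4 held 20.1, 30.5, 31.4 and 30.5 CPM in 6-month F libraries, 17 to 21.8 (median 19.5) at 20 months and 14.3 to 27.8 (median 20.1) at 28 months. M values ran 29.3 to 48.6 (median 38.2) at 6 months, 15.7 to 26.9 (median 20.4) at 20 months and 28, 23.4, 27.5, 26.1 and 26.2 at 28 months. Both older F groups overlapped the 6-month F group through 6-month F replicate 1, at 20.1 CPM. Neither older M group overlapped the 6-month M group. Chchd4 fell, with log2 fold changes of -0.53 (SE 0.16, adjusted p = 0.0061) in F and -0.91 (SE 0.13, adjusted p = 1.6e-08) in M at 20 months, and -0.48 (SE 0.16, adjusted p = 0.029) and -0.54 (SE 0.15, adjusted p = 0.0099) at 28 months. In F the 28-month call was lost without any 1 of 6-month replicates 2 to 4 or 28-month replicates 8 and 9 (0.052 to 0.13). Gfer held 22.6, 31.1, 31.2 and 27.7 CPM in 6-month F libraries, 11.8 to 16 (median 14.6) at 20 months and 16.7 to 47.4 (median 22.8) at 28 months. M libraries of Gfer ran 25.4 to 33.4 (median 26.2) at 6 months, 11.6 to 15 (median 13.6) at 20 months and 19.3, 18.5, 21.4, 19.4 and 19.5 at 28 months. The 28-month F group reached above all 6-month F libraries through replicate 9, at 47.4 CPM. Gfer fell, with log2 fold changes of -0.99 (SE 0.17, adjusted p = 1.2e-06) in F and -1.07 (SE 0.14, adjusted p = 5.2e-10) in M at 20 months and -0.53 (SE 0.16, adjusted p = 0.014) in M at 28 months, while 28-month F gave -0.14 (SE 0.17, adjusted p = 0.6). Without replicate 9, the library with the high fast fibre sum, 28-month F passed (-0.42, adjusted p = 0.035).

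The matrix processing peptidase is a dimer of Pmpca and Pmpcb, and only the second fell. Pmpcb, the catalytic subunit, held 109.8, 123.9, 108.8 and 98.4 CPM in 6-month F libraries, 83.7 to 95.3 (median 87.5) at 20 months and 65.9 to 105.1 (median 83.4) at 28 months. M libraries ran 99.3 to 136.7 (median 120.6) at 6 months, 76.6 to 98 (median 89.6) at 20 months and 106.8, 106.2, 111.5, 111.5 and 103.9 at 28 months. Pmpcb fell, with log2 fold changes of -0.33 (SE 0.10, adjusted p = 0.005) in F and -0.41 (SE 0.08, adjusted p = 1.0e-05) in M at 20 months and -0.36 (SE 0.10, adjusted p = 0.0063) in F at 28 months, with -0.13 (SE 0.09, adjusted p = 0.38) in M. Pmpca, the substrate-binding subunit, held 177.7, 163.7, 118.04 and 155.04 CPM in 6-month F libraries, 146.7 to 166.7 (median 156.02) at 20 months and 108.9 to 161.1 (median 144.7) at 28 months. Across males it ran 133.8 to 164.5 (median 152.7) at 6 months, 147.2 to 170.2 (median 155.5) at 20 months and 112.5, 134.2, 150.8, 150.8 and 166.1 at 28 months. Pmpca groups overlapped in all 4 comparisons, with log2 fold changes of 0.03 and 0.04 at 20 months and -0.14 and -0.08 at 28 months. Pmpca counts were split between genes, since 98.7% of its values were not whole numbers and it overlaps Inpp5e on the other strand. The difference between the 2 subunits was not tested, and Pmpcb lost its call at both ages once transcript length was taken into account.

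MICOS shapes the cristae, with Immt as its core and Chchd3 and Chchd6 as its peripheral subunits. Chchd3 (chr6:32790976-33060260, minus strand) held 323, 459.6, 612 and 407 CPM in 6-month F libraries, 194.3 to 248 (median 211) at 20 months and 195.6 to 336 (median 235) at 28 months. Its values in M ran 398 to 616 (median 492) at 6 months, 209 to 254 (median 228) at 20 months and 321, 311, 289, 299 and 308 at 28 months. Against the 6-month group of the same sex, only the 28-month F group overlapped. Chchd3 fell, with log2 fold changes of -1.05 (SE 0.16, adjusted p = 1.6e-07) in F and -1.11 (SE 0.13, adjusted p = 7.1e-11) in M at 20 months, and -0.82 (SE 0.16, adjusted p = 4.0e-04) and -0.69 (SE 0.15, adjusted p = 0.0012) at 28 months. Immt fell in 1 of these 4 comparisons, at a log2 value of -0.34 (SE 0.10, adjusted p = 0.016) in F at 28 months, while its other values were -0.17 in M at 28 months and -0.21 in F and -0.19 in M at 20 months. Without 6-month F replicate 3, Immt lost its F call (adjusted p = 0.075). Chchd6 was barely expressed, at a mean of 4.59 CPM at 6 months in F, and fell at 20 months, with log2 fold changes of -0.82 (SE 0.27, adjusted p = 0.012) in F and -0.52 (SE 0.22, adjusted p = 0.049) in M.

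Among other import and cristae genes outside the 36, more fell than rose. Of 20 tested (21 in the table), 13 fell and 2 rose at 20 months in F (17.8% of all genes fell and 18.2% rose), and 14 fell and 2 rose in M (22% fell and 22.6% rose). At 28 months 12 fell and 1 rose in F (9.04% fell and 9.91% rose), and 6 fell in M (9.38% fell). With the length and GC offsets 9 fell in each sex at 20 months, and 7 in F and 5 in M at 28 months. Leaving out the libraries that stand apart, 14 fell in each sex at 20 months, and 1 in F and 8 in M at 28 months. The 2 that rose at 20 months were Opa1, the inner membrane fusion protein (0.71 in F and 0.56 in M), and the peptidase Xpnpep3 (0.90 and 0.77). Immp1l, an inner membrane peptidase, fell, with log2 fold changes of -1.27 and -1.35, and Minos1, the small core subunit of MICOS, -1.10 and -1.21. Tomm70a, the TOM receptor for carriers, gave 0.06 and -0.08, and Hspa9, the Hsp70 of the motor, gave 0.01 and -0.10, with no call for either. Of 12 matrix chaperones, proteases and prohibitins, 7 in F and 6 in M fell at 20 months, and 5 and 4 at 28 months, beside the same shares of all genes. The offsets left 3 in F and 5 in M at 20 months and 4 and 2 at 28 months. The counts were 8 and 9 at 20 months and 2 and 5 at 28 months when the libraries that stand apart were left out. Hspe1, the small partner of the chaperonin, fell, with log2 fold changes of -1.02 in F and -1.30 in M at 20 months, and Phb2, a prohibitin, -1.08 and -1.11. Hspd1, the chaperonin itself, gave 0.01 in F and -0.24 in M without a call.

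Transcript length moved with these values. The members are short, with a median of 1632 bases (518 for Timm8b to 7280 for Timm17a) against 2765 over the genes tested. Over genes tested, the rank correlation of the log2 fold change with length was 0.57 in F and 0.53 in M at 20 months and 0.31 and 0.34 at 28 months, given as a description across genes that share their libraries. Among genes under 1000 bases 38.1% fell at 20 months in F, and among those of 4000 bases or more 3.22% did. Of the members, 7 of 7 in the first class and 4 of 4 in the last fell.

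With offsets that remove the length and GC trend over all genes in each library, fewer members passed. Over genes tested the rank correlation with length was then -0.01 in F and -0.04 in M at 20 months. Among the members the offsets reversed it. It went from 0.50 to -0.50 in F and from 0.42 to -0.52 in M at 20 months. At 28 months it went from 0.10 to -0.57 in F and from 0.29 to -0.48 in M. At 20 months 21 fell in F (median -0.40, 8.6% of all genes fell) and 24 fell in M (median -0.49, 14.2% of all genes). At 28 months 20 fell in F (median -0.35, 5.59% of all genes) and 16 in M (median -0.29, 6.29% of all genes). Long members had a larger change with the offsets at 20 months in F: Tomm40l went to -1.57, Tomm20 to -1.50, Timm17a to -1.37, Timm10b to -1.25 and Grpel1 to -1.09. Samm50 went to -0.91 in F and -0.96 in M. At 20 months in F 11 members lost their call: Pam16 (-0.19), Timm9 (-0.07), Timm10 (-0.04), Tomm6 (0.04), Mtx1 (-0.06), Chchd6 (0.01), Pmpcb, Timm44, Timm8a1, Tomm40 and Tomm7. In M at 20 months 8 did: Chchd6, Dnajc19, Mtx1, Pam16, Pmpcb, Timm10, Timm9 and Tomm6. At 28 months 8 lost it in F (Dnajc19, Mtx1, Pam16, Pmpcb, Timm10, Timm44, Timm8a1 and Timm9). In M 9 did (Dnajc19, Gfer, Pam16, Timm17b, Timm50, Timm8a1, Timm8b, Tomm40 and Tomm6), and Tomm20 gained one. Tomm40, with a transcript of 1646 bases, changed sign in F (0.03). Tomm34 rose in M at 20 months with the offsets (0.32, adjusted p = 0.0038). The source of the length trend was not tested.

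**Figure D3:**
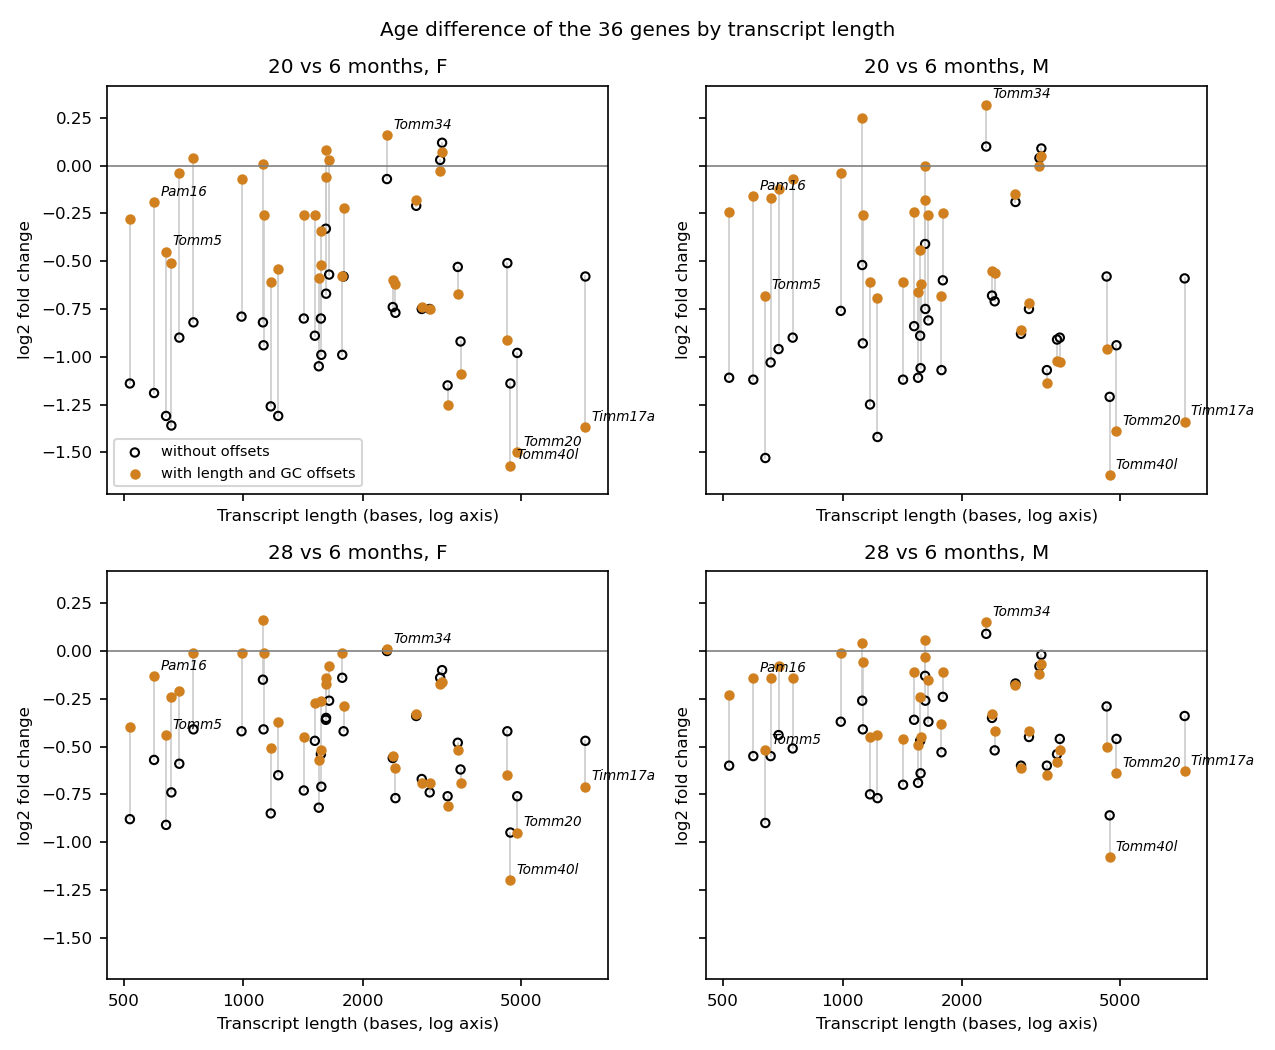
Log2 fold change of each member against its transcript length in bases (log axis), for 20 and 28 months against 6 months in F and M. Open points are without and orange points with the length and GC offsets. With offsets the short members move towards 0 and the longest, such as Tomm40l and Timm17a, move further below it.

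Counting also touched some members. Values that were not whole, as when reads are shared between genes, made up over 50% for 11 members: Timm8a1, Timm10b, Timm23, Tomm6, Tomm40, Tomm40l, Mtx1, Pmpca, Gfer, Pam16 and Grpel1. Another gene in the table overlapped 21 members, and the strand setting of the counting is not given in the sources used here, so their values are uncertain to that extent.

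Markers of vessels and of tendon were higher at 20 months, where the members were lower. The summed CPM of 10 endothelial markers ran 161 to 387 (median 201) at 6 months in F and 118 to 236 (median 167) in M, against 573 to 741 (median 653) and 587 to 802 (median 679) at 20 months. At 28 months the sums ran 118 to 484 (median 385) in F and 289 to 537 (median 433) in M. All 10 were above 0 in every library, and the lowest level of Cdh5 was 6.8 CPM. The 7 smooth muscle and pericyte markers summed to 166 to 393 (median 240) in F and 172 to 250 (median 195) in M at 6 months, and to 659 to 746 (median 704) and 634 to 859 (median 735) at 20 months. Cnn1 was at 0 in some libraries. Tendon markers (6 genes) summed to 187 to 546 (median 216) in F and 99.2 to 240 (median 136) in M at 6 months. At 20 months they summed to 578 to 805 (median 685) and 294 to 627 (median 438). The lowest level of Mkx, a tendon marker, was 0 CPM. Adipocyte markers (7 genes) had medians of 286 in F and 211 in M at 6 months and 393 and 384 at 20 months. Slow fibre markers (8 genes) had medians of 34340 in F and 23052 in M at 6 months and 41911 and 24875 at 20 months. The mitochondrial genome took a median of 17.7% of counts at 6 months in F and 22.5% in M, and 16.3% and 18.4% at 20 months. The part of these in the falls was not tested.

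In batch 1, part of the set was higher at 28 than at 20 months. The 28-month libraries of batch 2 are not in this contrast, and their per-library medians, given further on, overlapped those at 20 months. These comparisons share the 20-month and 28-month libraries with those above. In F, 13 of 36 rose and none fell (median 0.26, all genes 0.09), where 17.3% of all genes rose. In M, 24 rose and none fell (median 0.41, all genes 0.00), where 8.25% of all genes rose. Without the libraries that stand apart, 17 rose in F (15.1% of all genes) and 28 in M (11.7% of all genes). No library of the compared M groups stands apart, so in M only the shared spread, filter and scaling changed. All 3 members of the motor rose in both sexes: Pam16 by 0.62 (SE 0.16, adjusted p = 0.0022) in F and 0.57 (SE 0.15, adjusted p = 0.0049) in M, Dnajc19 by 0.62 (SE 0.18, adjusted p = 0.0064) and 0.48 (SE 0.17, adjusted p = 0.039), and Grpel1 by 0.30 (SE 0.11, adjusted p = 0.036) and 0.44 (SE 0.11, adjusted p = 0.0025). Leaving out 1 library ended the call of Grpel1 in F in 6 fits (adjusted p 0.055 to 0.19) and of Dnajc19 in M in 8 (0.05 to 0.11). Gfer rose by 0.85 (SE 0.15, adjusted p = 2.0e-05) in F and 0.54 (SE 0.14, adjusted p = 0.0049) in M, and Timm13 by 0.66 (SE 0.16, adjusted p = 0.0013) and 0.65 (SE 0.15, adjusted p = 0.0015). Both Gfer and Timm13 had 20- and 28-month groups that did not overlap in either sex. TOM gave 3 rises in F and 6 in M, and the small TIM chaperones 2 and 5. Neither TIM22 member passed in either sex.

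With the length and GC offsets most of those rises lost their call. In F, 4 rose (Gfer, Grpel1, Timm17a and Tomm20) and Pmpcb fell, where 9.67% of all genes rose. In M, 4 rose (Grpel1, Samm50, Timm17a and Tomm20), where 1.6% of all genes rose. Timm17a, the longest member, gained its call with the offsets, at 0.66 in F and 0.71 in M. Grpel1 and Tomm20 passed in both sexes with the offsets, Grpel1 at 0.40 in F and 0.51 in M and Tomm20 at 0.55 and 0.75. Among the members the rank correlation with length went from -0.61 to 0.28 in F and from -0.55 to 0.56 in M with the offsets.

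**Figure D4:**
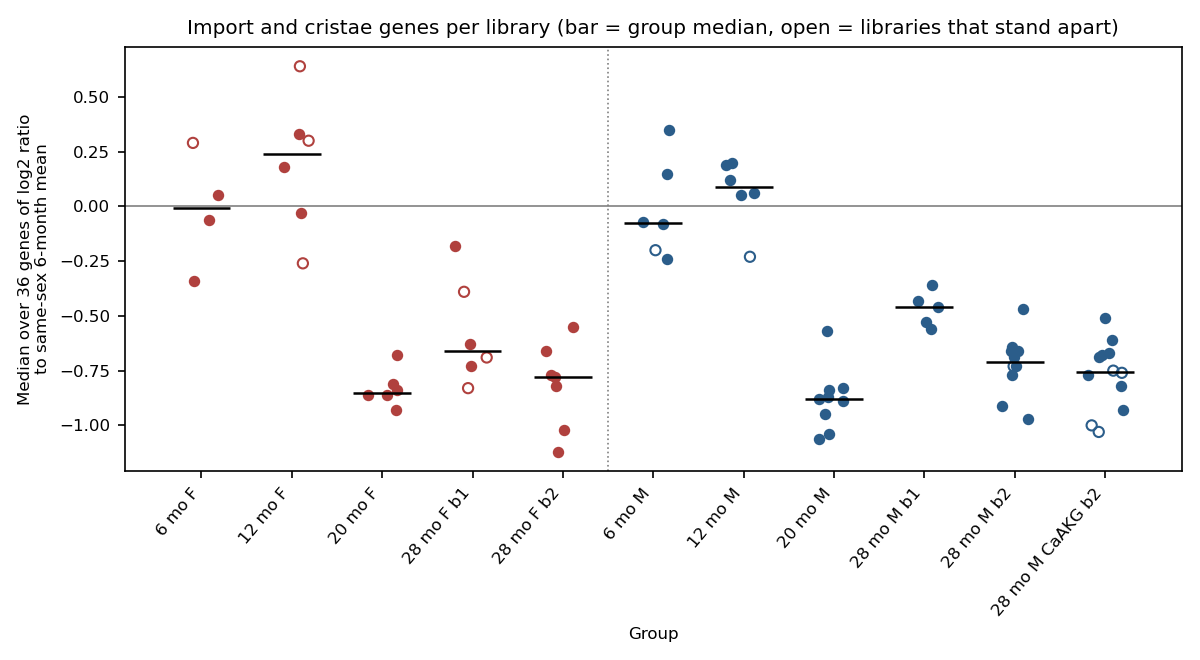
Median over the 36 genes of the log2 ratio to the same-sex 6-month mean, in every library of the 11 groups. The 20-month libraries lie between -1.06 and -0.57, the 28-month batch 1 males between -0.56 and -0.36, and the 12-month libraries between -0.26 and 0.64. The batch 2 controls, at -1.12 to -0.47, overlap the 20-month range.

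Summarised per library as the median over the 36 genes of the log2 ratio to the same-sex 6-month mean, the groups lay as follows. The 20-month F libraries lay at -0.93 to -0.68 (median -0.85) and the M libraries at -1.06 to -0.57 (median -0.88). Batch 1 mice at 28 months lay at -0.83 to -0.18 (median -0.66) in F and -0.56 to -0.36 (median -0.46) in M. Batch 2 controls at 28 months lay at -1.12 to -0.55 (median -0.78) in F and -0.97 to -0.47 (median -0.71) in M, and CaAKG males at -1.03 to -0.51 (median -0.76). All 3 batch 2 groups overlapped the 20-month group of their sex, and in M batch 1 at 28 months did not. The 6-month libraries themselves spread from -0.34 to 0.29 in F and from -0.24 to 0.35 in M, with F replicate 3 the highest of its group at 0.29. The 28-month F group of batch 1 overlapped the 6-month F group, and no 20-month or batch 2 library overlapped the 6-month group of its sex.

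At 12 months few members passed the test. In F no member passed in edgeR, where 0.231% of all genes passed in either direction, although 16 members had an unadjusted p under 0.05 and DESeq2 called 1, Timm29. The F median was 0.21 (all genes 0.00). Timm29 was lower at 12 months, with a mean of 44.9 against 64.3 CPM (-0.52, SE 0.13, adjusted p = 0.051), and Tomm5 was higher, with 91.5 against 58.5 CPM (0.64, SE 0.22, adjusted p = 0.2). In M, 1 member rose and none fell, where 3.02% of all genes rose. It was Tomm20, at a mean of 358 against 252 CPM (0.50, SE 0.16, adjusted p = 0.033). Its call was lost without any of 7 single libraries (12-month M replicates 1, 2 and 6 and 6-month M replicates 1 to 4), with an adjusted p of 0.06 to 0.2. Without the libraries that stand apart, Tomm20 and Timm8b rose and Immt, Pmpca and Timm29 fell in M, where 20.5% of all genes passed in either direction.

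No member passed the test between CaAKG and control feed in 28-month males of batch 2. Of the 36, 0 passed in edgeR and 0 in DESeq2, 2 had an unadjusted p under 0.05, and 0.0659% of all genes passed. Log2 fold changes ran from -0.26 to 0.18 with a median of -0.04, and 27 of 36 were below 0. Timm9 had the smallest p: control libraries ran 9.55 to 14.7 (median 12.9) CPM and CaAKG libraries 7.52 to 12.1 (median 10.6), or -0.26 (SE 0.10, adjusted p = 0.59) on the log2 scale. Timm17a ran 108.1 to 155.02 (median 133.02) CPM in controls and 100.5 to 143.1 (median 119.4) with CaAKG (-0.18, SE 0.09, adjusted p = 0.72). For both genes the groups overlapped. Timm8a1 gave -0.26 (SE 0.14, adjusted p = 0.83) and Mtx1 -0.13 (SE 0.08, adjusted p = 0.89). Tomm34 had an interval of -0.07 to 0.20, and Samm50 of -0.19 to 0.07.

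Males were compared with females within batch 2 at 28 months. No member passed in edgeR, where 1.3% of all genes passed, but 17 had an unadjusted p under 0.05 and DESeq2 called 5, all higher in M. The median was 0.21 (all genes 0.04). Chchd3 ran 135.2 to 263 (median 203) CPM in F and 218 to 319.7 (median 268) in M (0.44, SE 0.12, adjusted p = 0.055). Timm9 ran 5.93 to 12.1 (median 9.72) in F and 9.55 to 14.7 (median 12.9) in M (0.41, SE 0.12, adjusted p = 0.061). Timm17a ran 91.9 to 127.99 (median 106.1) in F and 108.1 to 155.02 (median 133.02) in M (0.33, SE 0.10, adjusted p = 0.072). Timm44 gave 0.31 (SE 0.09, adjusted p = 0.072) and Mtx1 0.33 (SE 0.10, adjusted p = 0.072). The groups overlapped for all 5. Without the libraries that stand apart, Chchd3, Timm17a, Timm23, Timm44 and Timm9 were called higher in M by edgeR, where 3.06% of all genes passed.

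The difference between the sexes in the change with age was tested as an interaction, and no member passed. For 28 against 6 months, 0 had an unadjusted p under 0.05 and DESeq2 called 0, where 0.329% of all genes passed. The smallest p were those of Pmpcb (0.23, SE 0.13, adjusted p = 0.5), Gfer (-0.39, SE 0.23, adjusted p = 0.5), Mtx2 (0.29) and Tomm20 (0.30), each as the M change minus the F change. The interval for Gfer was -0.85 to 0.06. For 20 against 6 months, 0 had an unadjusted p under 0.05 and DESeq2 called 0, where 0% of all genes passed. There the smallest p were those of Tomm40 (-0.24, SE 0.13, adjusted p = 1), Chchd4 (-0.38, SE 0.21, adjusted p = 1), Dnajc19 (0.33) and Tomm34 (0.17). Without the libraries that stand apart, again no member passed in edgeR. For 28 against 6 months 3 then had an unadjusted p under 0.05, all below 0, with a smallest adjusted p of 0.053. The median member moved from 0.09 to -0.15. For 20 against 6 months 3 did, all below 0, with a smallest adjusted p of 0.34, and the median moved from -0.01 to -0.16. So the 7 genes called in F alone and the 3 in M alone at 28 months were not shown to differ by sex.

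Batches of 28-month controls differed for some members. In F, 10 fell and none rose in batch 2 against batch 1, where 13% of all genes fell, with a median of -0.24 (all genes -0.09). Gfer fell most, from 16.7 to 47.4 (median 22.8) CPM in batch 1 to 10.2 to 20.6 (median 15.4) in batch 2 (-0.75, SE 0.14, adjusted p = 3.4e-04), and the groups overlapped. Dnajc19 went from 23.5 to 43.8 (median 29.2) to 8.19 to 27.4 (median 21.1) CPM (-0.62, SE 0.17, adjusted p = 0.0082), and Tomm7 had -0.52 (SE 0.14, adjusted p = 0.0069). The others were Pam16, Tomm40, Mtx1, Timm9, Timm13, Timm50 and Tomm6. Without the libraries that stand apart 15 fell, where 11.3% of all genes fell. In M no member passed in edgeR, where 1.02% of all genes passed, 14 had an unadjusted p under 0.05 and DESeq2 called 2, Grpel1 and Tomm40, both lower in batch 2. The M median was -0.24 (all genes 0.01). Ages other than 28 months were in batch 1 alone.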

How the data were processed

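The authors deposited expected counts per gene from RNA-seq of mouse soleus. Per the submitters' processing notes, FastQC, STAR 2.7.11b, RSEM 1.3.3 and the mm10 build were used. Of the values, 8.99% were not whole (tolerance 1e-06) and all were rounded. The table's 78 columns matched to labels were used, and 55 columns of per-sample values that match no label were not. Symbols, positions (GRCm38) and transcript lengths were matched for 35298 of 36904 IDs through GENCODE release M21.

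Genes were filtered with edgeR 4.0.16 filterByExpr (minimum count 10, minimum total 15), scaled with TMM and tested with the quasi-likelihood test (R 4.3.3) on 77 replicates, after summing the 2 libraries with the same animal tag, with 1 mean for each of 11 groups. Contrasts were adjusted with the Benjamini-Hochberg method over 18218 genes at 0.05. Scripts were tested on simulated data. Standard errors and intervals come from the same fit, and intervals are at 95%.

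Alternatives were DESeq2 1.42.0, RLE factors, no filter, only the compared groups, a replicate block, the mitochondrial genome left out, splines of length and GC (5 degrees of freedom) as offsets, the animal-tag libraries kept apart, leaving out each replicate, and leaving out the 14 libraries that stand apart. The offsets together with leaving out those libraries were added after seeing the data.

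The members and lists were chosen with earlier results of these data known. Members shown in full were, in each role class, that with the smallest p at 28 against 6 months, any called against most of its class, the paralogue or partner pairs, and up to 4 with the smallest p for CaAKG, sex and each sex-by-age comparison. All 36 are named.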

Additional observations from a re-analysis of the deposited data

Results flagged for a closer look

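Among 230 group values of the 23 members shown in full (groups of 4 to 10 libraries), 17 had a highest or lowest library far from the others of its group, in 11 libraries. Chance gives this in about 1 in 20 groups. Their explanations were not tested.

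In 28-month males of batch 2, replicate 1 was highest for Timm13 (60.8 CPM, the others 34.7 to 40.2), Timm22 (36.6, the others 24.8 to 31.1) and Gfer (23.6, the others 13.6 to 18.3). Replicate 5 of that group was lowest for Timm21 (14.8, the others 21.2 to 25.6). In 20-month males, replicate 3 was highest for Timm13 (44.9, the others 28 to 36), Chchd4 (26.9, the others 15.7 to 21.2) and Timm9 (14.4, the others 8.49 to 10.8). In 12-month females, replicate 4, whose sex-linked transcripts went against its label, was highest for Timm8b (217, the others 81.5 to 107.6) and Dnajc19 (135.5, the others 39 to 66.4). That library also had the lowest sum of 8 slow fibre markers in its group, 7897 CPM against a median of 30564. In 28-month females of batch 2, replicate 7 was lowest for Pmpcb (61.6, the others 79.3 to 92.5) and Tomm20 (68.4, the others 114.7 to 145.6).

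The remaining 6 fell on different libraries. Replicate 3 of the 12-month males, also against its sex label, was lowest for Timm13 (60.5, the others 95.9 to 110.5). Replicate 9 of the 28-month females of batch 1 was highest for Gfer (47.4, the others 16.7 to 24.8), and replicate 11 of the 28-month males of batch 1 lowest for Timmdc1 (31.8, the others 35.7 to 36.9). Replicate 1 of the 6-month females was lowest for Chchd4 (20.1, the others 30.5 to 31.4). In 20-month females, replicate 2 was highest for Tomm34 (16.3, the others 13.9 to 14.6) and replicate 1 for Mtx1 (18, the others 15 to 15.7).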

How the results depend on the processing

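The counts of members that fell at 20 months in M, the counts for CaAKG and both sex-by-age counts stayed within 1.5 times under every alternative run. With only the compared groups, 0 members passed for 28 against 6 months in F, 0 for 12 against 6 months in M, 5 for M against F, 1 for batch in F and 11 for batch in M. DESeq2 called 1 at 12 months in F, 2 at 12 months in M, 5 for M against F and 2 for batch in M. At 12 months in M, RLE factors gave 2, no filter 0 and the mitochondrial genome left out 2. Keeping the animal-tag libraries apart gave 1 at 12 months in F.

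Length and GC offsets gave 21 at 20 months in F, 5 for 28 against 20 months in F and 4 in M, 2 for M against F and 4 for batch in F. Without the libraries that stand apart, 8 passed at 28 months in F, 5 at 12 months in M (2 rose and 3 fell, against 1 rise), 5 for M against F and 4 for batch in M. With both, the counts were 4 at 28 months in F, 18 at 20 months in F, 5 at 12 months in M, 5 and 8 for 28 against 20 months in F and M, 6 for M against F, and 5 and 1 for batch in F and M. Some log2 fold changes changed sign with the offsets, and the second value is with those libraries also left out: Pmpcb 0.08 and 0.05 and Tomm40 0.03 and 0.00 at 20 months in F, and Tomm40 -0.11 and -0.07 and Mtx1 -0.11 and -0.22 for 28 against 20 months in F. Only with both did Mtx1 for batch in F (0.02) and Timm9 at 28 months in F (0.20) change sign. The cause was not tested.

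Leaving out each replicate gave 11 (without 6-month F replicate 3) to 31 at 28 months in F, 15 (without 6-month M replicate 5) to 30 in M, 31 to 32 at 20 months in F, 31 to 33 in M, 0 to 5 at 12 months in F and 0 to 4 in M, 8 to 15 for 28 against 20 months in F and 17 to 25 in M, 0 to 3 for M against F and 5 to 14 for batch in F. The 8 followed from 28-month F replicate 13 or 20-month F replicates 3 or 6, and the 5 for batch from batch 2 replicate 7 or batch 1 replicate 13. In every such fit, 11 of 28 calls at 28 months in F, 15 of 24 in M and 31 of 32 in each sex at 20 months were kept. With the replicate number as a block, 32 fell in each sex at 20 months, 0 passed at 12 months in F, 1 in M (Timm8b in place of Tomm20), 0 for CaAKG and 0 for M against F. Correlations of same-numbered libraries ran from -0.176 to 0.173. These gave no sign that the numbers pair the libraries, but a weak link could be missed. No paired analysis was possible for the 28-month batch 1 comparisons because those groups share no replicate numbers. Chchd6 had the largest standard error of the members in every comparison, 0.27 at 20 months in F.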
